A study of Mus musculus with 123 samples.

Results

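The 36 genes described here belong to the machinery that copies DNA and to the S-phase program around it. Genes were taken by symbol from a table of 29022 genes, and every symbol stood on 1 line of it. The set holds 9 licensing genes (Mcm2, Mcm3, Mcm4, Mcm5, Mcm6, Mcm7, Cdc6, Cdt1 and Gmnn), 4 helicase-activation genes (Cdc45, Gins1, Gins2 and Mcm10), 4 genes of the polymerases and primase (Pola1, Pold1, Pole and Prim1) and 6 genes of the sliding clamp, its loader and single-strand binding (Pcna, Rfc2, Rfc3, Rfc4, Rfc5 and Rpa2). It also holds 3 genes of flap cleavage, ligation and uracil repair (Fen1, Lig1 and Ung), 4 genes of nucleotide supply (Rrm1, Rrm2, Tyms and Tk1), 3 genes of histone mRNA and chromatin (Slbp, Cdca7 and Hells) and 3 regulators of S-phase entry (E2f1, Ccne1 and Ccne2).

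The study asked what the transcription factors Oct4 (gene Pou5f1) and Sox2 do while the mouse inner cell mass (ICM) forms and matures, and 48 Ctrl, 48 KO and 27 MWT single embryos or ICMs were sequenced, 1 library each. KO embryos lacked the maternal and the zygotic gene: their mothers carried floxed alleles deleted in the oocyte by Zp3-Cre, and their fathers, heterozygous, passed on a null allele marked by mKO2 (Oct4) or EGFP (Sox2) under the PGK promoter. Ctrl embryos had the same maternal deletion and an intact paternal allele. In MWT embryos the mothers had not lost the gene. All were labelled B6C3F1. Morulae were taken whole at E2.75. Ctrl and KO ICMs, early at E3.75 and late at E4.5, were cultured from E2.5 with the MEK inhibitor PD0325901 at 1 μM and freed by immunosurgery. Stage therefore cannot be told apart from culture or isolation when morulae and ICMs are set side by side. There were 8 Ctrl and 8 KO embryos per line and stage. Of MWT embryos the Oct4 line had 7 at the morula, 5 at the early ICM and 8 at the late ICM stage, and the Sox2 line had 7 early ICMs, labelled with the same day and inhibitor as the Ctrl. The stage of the Oct4 MWT ICMs follows the sample titles, from which the source names differ: those titled early ICM have a morula source name and no treatment label, and those titled late ICM have an early ICM source name with the inhibitor. Their embryonic day is therefore uncertain, as is the inhibitor for the early ones.

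Before S phase, the MCM2-7 helicase is loaded onto origins by Cdc6 and Cdt1, a step that geminin (Gmnn) blocks. Cdc45 and the GINS complex then join the helicase and activate it, primase and polymerase alpha start each strand, and polymerases delta and epsilon extend it with the Pcna clamp. Many of these genes are textbook targets of E2F transcription factors, which cyclin E-dependent kinase helps to release as cells enter S phase, and cleaving mouse embryos pass through S phase in rapid succession.

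Libraries held between 525755 and 1344035 unique molecular identifiers (UMIs, tags that let PCR copies be counted once), and in the Ctrl and KO groups of each line the median fell from morula to early to late ICM. Levels are given in CPM, UMIs relative to a library total common to all embryos after TMM scaling, as the lowest, median and highest embryo of a group. Pou5f1 averaged 0.431, 1.03 and 0.156 CPM in Oct4 KO morulae, early ICMs and late ICMs against 21.1, 77.7 and 43.8 in Ctrl embryos. Sox2 averaged 1.56, 24.3 and 16.7 CPM in Sox2 KO embryos against 13.7, 106 and 174. The 8 epiblast markers summed to means of 1593 and 2692 CPM in the early and late Oct4 Ctrl ICMs and 1948 and 2517 CPM in those of the Sox2 line, against 661 and 697 CPM in the morulae. Calls required an adjusted p (Benjamini-Hochberg) below 0.05 together with a log2 fold change of 1 or more in size. They come from edgeR's quasi-likelihood test over 14053 genes, all 36 members among them.

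Loss of either factor left no called member in the morula. In Oct4 KO morulae the log2 fold changes of the 36 members ran from -0.46 to 0.41 with standard errors (SE) of 0.11 to 0.33, and their median was 0.06 against 0.01 over all genes tested. Against 0.626% of all genes called lower and 0.178% called higher, 0 members were called by edgeR and 0 by DESeq2, while 5 members were under an unadjusted p of 0.05, as were 1707 genes in all. Past the adjusted p alone there were also 0, beside 0.904% of all genes lower and 0.562% higher, and 0 had groups that did not overlap, beside 0.256% and 0.221%. The smallest p-values belonged to Rfc4, a clamp-loader subunit, with a log2 fold change of 0.39 ± 0.14, to Lig1, the DNA ligase that joins Okazaki fragments, with -0.46 ± 0.17, and to the licensing factor Cdt1 with 0.29 ± 0.11. Their adjusted p-values were 0.167, 0.17 and 0.228.

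In Sox2 KO morulae the values ran from -0.48 to 0.37 with a median of 0.02 against 0.01 over all genes. By edgeR and by DESeq2 0 members were called, beside 0.00712% of all genes called lower and 0% called higher, and 2 members against 618 genes in all were under an unadjusted p of 0.05. The adjusted p alone and separation of the groups gave 0 members too, beside the same shares of all genes. E2f1 had -0.48 ± 0.21, the histone stem-loop binding gene Slbp 0.37 ± 0.16 and Mcm4 0.28 ± 0.17, each with an adjusted p of 1.

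**Figure D1:**
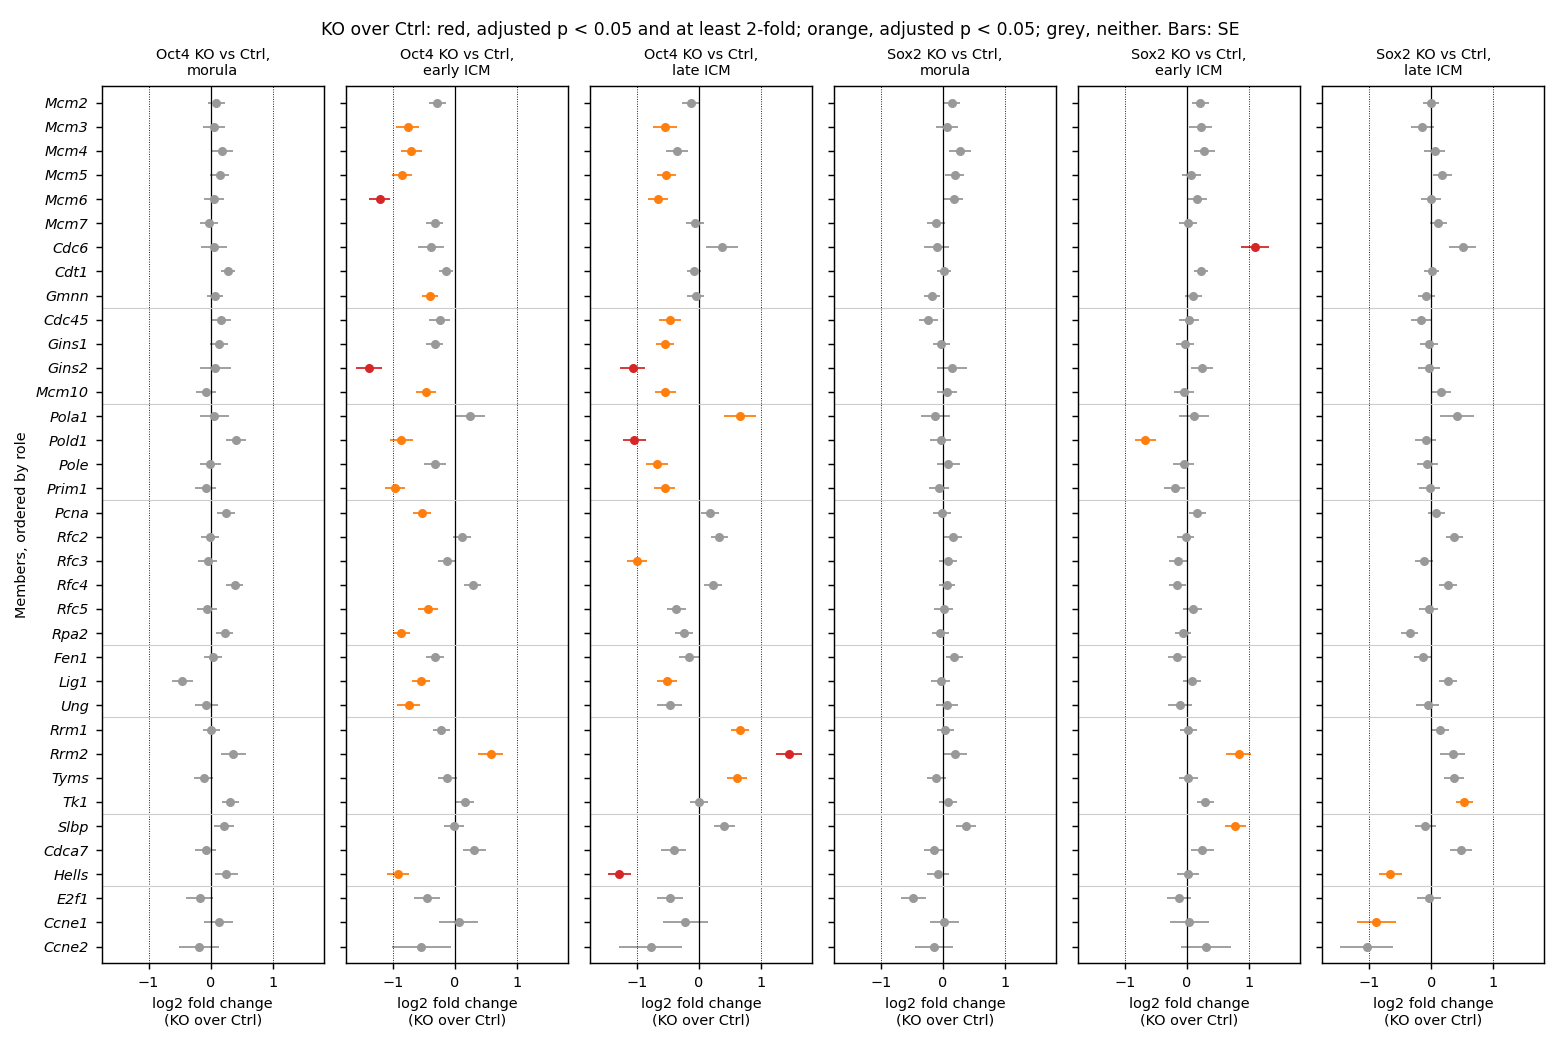
Log2 fold change of each of the 36 members, KO over Ctrl, with its SE as a bar, in 3 stages of the Oct4 line and 3 of the Sox2 line (8 against 8 embryos each). Red marks an adjusted p under 0.05 with a log2 fold change of at least 1 in size, orange the adjusted p alone and grey neither. The morula panels are grey throughout, and in the Oct4 early ICM panel 29 of the 36 points lie below 0.

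In Oct4 KO early ICMs 15 of the 36 members were lower past the adjusted p, 1 was higher and 20 passed in neither direction. Among the 36 members 29 had a log2 fold change below 0, and the median was -0.35 against 0.01 over all genes. The 15 lower members are 41.7% of the set, beside 10.9% of all genes, and the 1 higher member stands beside 10.1% of all genes. Leaving out 1 embryo at a time, Gmnn, Mcm10, Rfc5 and Rrm2 remained past the adjusted p in 13, 12, 9 and 8 of 16 omissions. The call that also needs the fold minimum took 2 members as lower, Gins2 and Mcm6, against 6.11% of all genes, and 0 as higher against 4.77%, while leaving out KO embryo 18 raised the called members to 4. Since each library is a whole ICM, fewer cells of a type and less RNA per cell cannot be told apart.

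Licensing genes all pointed the same way, with 9 of 9 below 0 and 5 past the adjusted p. Mcm6, a subunit of the helicase ring at mm10 chr1:128331590-128359664 on the minus strand, stood at 186, 205 and 324 CPM in Ctrl early ICMs and at 69.0, 90.3 and 145 CPM in the KO. No KO embryo reached the lowest Ctrl embryo. Its log2 fold change was -1.21 ± 0.17 (adjusted p = 7.99e-09, lower in 8 of 8 KO embryos than the Ctrl median). Mcm5 ran from 190 through 252 to 353 CPM in Ctrl and from 85.7 through 140 to 184 CPM in KO embryos (-0.85 ± 0.16, adjusted p = 1.6e-05). For Mcm4 the same values were 230, 256 and 394 CPM against 92.6, 178 and 223 CPM (-0.70 ± 0.17, adjusted p = 0.0013). Neither of these helicase subunits overlapped between the genotypes. Mcm3 and Gmnn were also lower past the adjusted p (-0.76 and -0.40), and Mcm2, Mcm7, Cdc6 and Cdt1 had log2 fold changes of -0.28, -0.33, -0.38 and -0.14 that did not pass.

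Gins2, a subunit of the GINS complex on chromosome 8 (mm10 chr8:120578633-120589304, minus strand), had the largest fall of the 36 in early ICMs. It stood at 45.9, 55.5 and 72.4 CPM in Ctrl and 12.1, 17.9 and 37.4 CPM in KO ICMs, which were between 10 and 32 UMIs per KO embryo. The groups did not overlap, and the log2 fold change was -1.38 ± 0.21 (adjusted p = 1.78e-07). The gene overlaps Gse1 and Gm20388 on the other strand, and whether the authors' counting used strand is not stated, so some of its reads could belong to these genes. Of the other helicase-activation genes, Mcm10 fell with a log2 fold change of -0.47, and Gins1 and Cdc45 (-0.32 and -0.24) did not pass.

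Among the polymerases and primase, Prim1, the catalytic primase subunit, went from 54.9, 72.9 and 125 CPM in Ctrl to 33.2, 37.5 and 53.5 CPM in KO early ICMs with no overlap (-0.96 ± 0.17, adjusted p = 4.32e-06). Pold1, the catalytic subunit of polymerase delta, fell by 0.86 on the log2 scale (SE 0.19, adjusted p = 0.000258), with 38.1, 50.1 and 60.8 CPM in Ctrl and 11.4, 24.3 and 54.5 CPM in KO ICMs. The Pold1 ranges overlapped, and 7 of 8 KO embryos were under the Ctrl median. Pole (-0.31) and Pola1 (0.24) did not pass.

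The clamp and single-strand genes gave 3 lower members. Rpa2, part of the complex that coats single-stranded DNA, ranged from 88.8 to 153 CPM in Ctrl early ICMs, with a mean of 122 CPM, and from 51.4 to 104 CPM in the KO, with a mean of 67.4 CPM (-0.86 ± 0.14, adjusted p = 6.12e-07). Pcna, the sliding clamp, had a log2 fold change of -0.53 and Rfc5 one of -0.44. Rfc2, Rfc3 and Rfc4 did not pass, at 0.12, -0.13 and 0.29. Lig1 (-0.55) and the uracil glycosylase gene Ung (-0.74) were lower, and Fen1, the flap nuclease gene, had -0.31 without passing. Hells, a chromatin remodeller needed for DNA methylation, went from 67.6, 105 and 167 CPM to 34.3, 56.7 and 80.2 CPM (-0.91 ± 0.18, adjusted p = 7.65e-05), whereas Slbp and Cdca7 (-0.02 and 0.31) did not pass.

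Rrm2, the small subunit of the ribonucleotide reductase that makes deoxynucleotides, moved the other way. Its level was 207, 338 and 534 CPM in Ctrl and 330, 555 and 776 CPM in Oct4 KO early ICMs, and the ranges overlapped (0.58 ± 0.20, adjusted p = 0.029). The other nucleotide-supply genes, Rrm1, Tyms and Tk1, had -0.22, -0.12 and 0.16, and E2f1, Ccne1 and Ccne2 had -0.45, 0.06 and -0.54, with no member of either group past the adjusted p besides Rrm2. In all, 5 members were lower in every KO embryo than in any Ctrl embryo (Mcm4, Mcm5, Mcm6, Gins2 and Prim1) beside 2.44% of all genes, and 0 were higher in that way beside 1.49%. The 10 trophectoderm markers summed to 911 to 1605 CPM in these KO and 460 to 1448 CPM in the Ctrl ICMs. Of the 10, 3 were called higher and 1 lower, and no marker was without a UMI in either group. Of 8 epiblast markers 6 were called lower. Pou5f1 and Sox2 are among the 8, so in each KO comparison 1 lower call of this list is the deleted gene itself. Of the 6 primitive endoderm markers tested 2 were called lower and 1 higher, with mean sums of 850 CPM in KO and 592 CPM in Ctrl embryos. The part of these markers in the members' values was not tested.

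**Figure D2:**
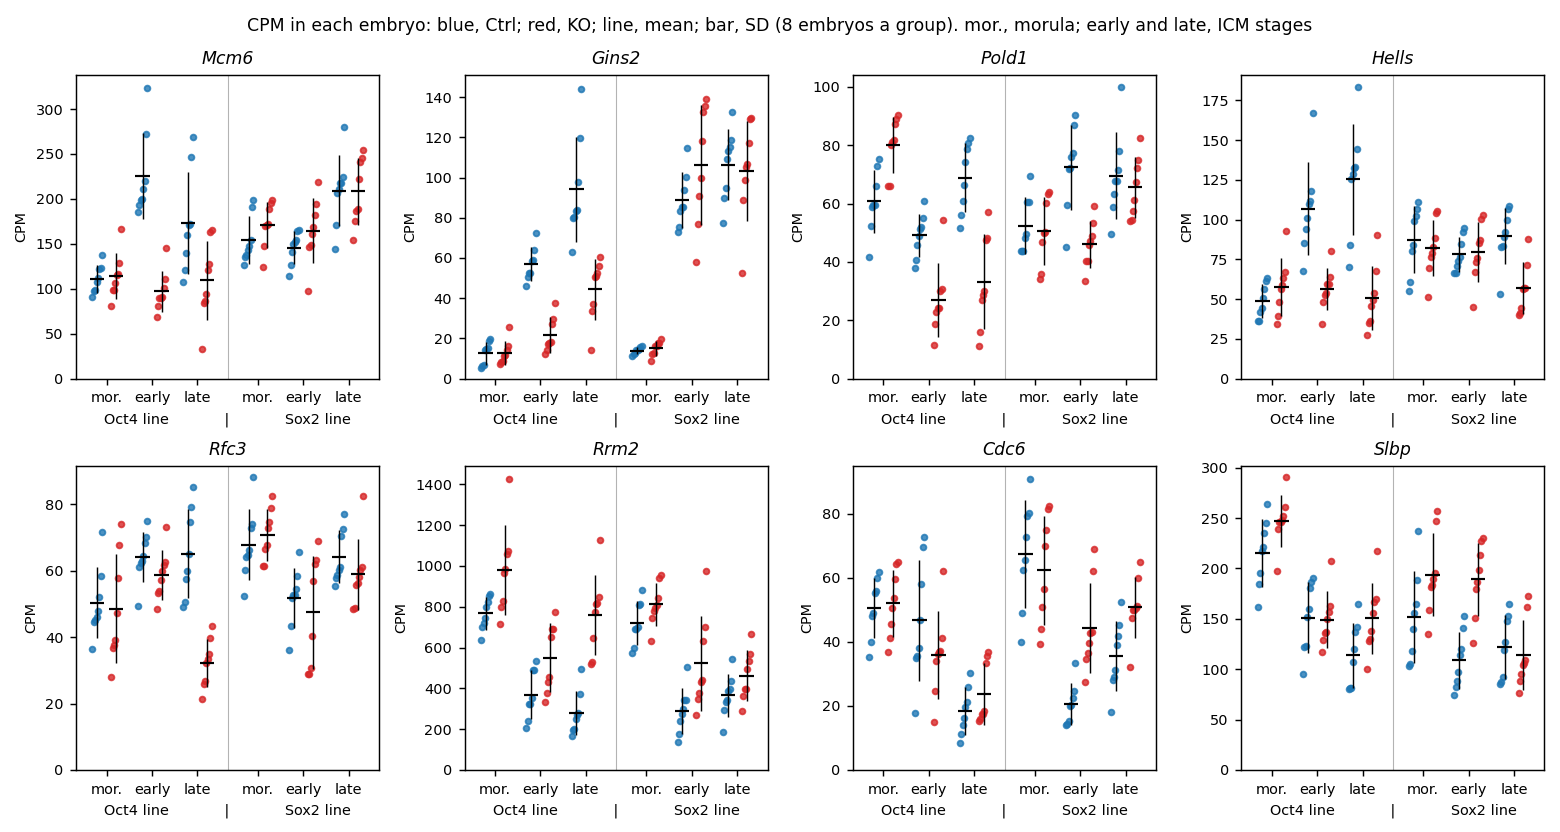
CPM in every Ctrl (blue) and KO (red) embryo for 8 members, by stage and line, on linear axes from 0, with the group mean as a line and the SD as a bar (8 embryos a group). Mcm6 and Gins2 in Oct4 early ICMs and Rrm2 and Rfc3 in Oct4 late ICMs show genotypes that do not overlap, and every morula pair overlaps.

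In Oct4 KO late ICMs all 4 helicase-activation genes and 3 of the 4 polymerase and primase genes were lower past the adjusted p, while the polymerase gene Pola1 and 3 of the 4 nucleotide-supply genes were higher. The median of the 36 members was -0.36 against -0.01 over all genes, with 26 below 0. Past the adjusted p alone, 13 members (36.1%) were lower beside 15.7% of all genes and 4 (11.1%) were higher beside 16% of all genes. With the fold minimum, 3 members were called lower (Hells, Gins2 and Pold1) beside 8.85% of all genes and 1 higher (Rrm2) beside 9.25%. The share of members called lower, 8.33%, was thus close to that of all genes, and the share called higher was below it.

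All 4 helicase-activation genes were lower past the adjusted p. Gins2 stood at 62.9, 83.7 and 144 CPM in Ctrl and 14.3, 50.9 and 60.5 CPM in KO late ICMs, without overlap (-1.07 ± 0.20, adjusted p = 6.34e-06). It dropped under the fold minimum, to -0.95 without Ctrl embryo 1-3 and to -0.94 without KO embryo 1-8, and remained past the adjusted p. Gins1, Mcm10 and Cdc45 had -0.55, -0.54 and -0.47. Pold1, on chromosome 7 at mm10 chr7:44532746-44548849 (minus strand), went from 51.8, 70.3 and 82.4 CPM to 11.1, 29.3 and 57.2 CPM with overlapping ranges (-1.04 ± 0.19, adjusted p = 3.77e-06), and to -0.92 and -0.94 without KO embryo 1-8 or 2-6. Pold1 overlaps Gm44833 and Mir7053, so reads may be shared. Pole, the catalytic subunit of polymerase epsilon, and Prim1 were lower too (-0.68 and -0.55), whereas Pola1, the polymerase alpha catalytic gene, was higher at 21.9, 42.4 and 72.9 CPM against 13.8, 25.6 and 45.3 CPM (0.66 ± 0.26, adjusted p = 0.0424).

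Hells, at mm10 chr19:38930915-38971051 on the plus strand, had the lowest value of the 36 in late ICMs, with 70.2, 131 and 183 CPM in Ctrl and 27.6, 47.4 and 90.3 CPM in KO embryos (-1.28 ± 0.19, adjusted p = 3.74e-08). The ranges overlapped and 8 of 8 KO embryos were under the Ctrl median. Rfc3, a clamp-loader gene at mm10 chr5:151642756-151651242 (minus strand), showed 49.1, 62.5 and 85.3 CPM in Ctrl and 21.2, 32.8 and 43.3 CPM in KO late ICMs. These did not overlap, and the log2 fold change of -0.9998 (SE 0.16, adjusted p = 4.73e-07) narrowly missed the fold minimum, so it was not called. Means were 32.2 CPM in KO and 65.2 CPM in Ctrl embryos. In early ICMs the same gene had covered 49.5 to 75.1 CPM in Ctrl and 48.6 to 73.2 CPM in KO embryos.

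Of the licensing genes, Mcm6, Mcm3 and Mcm5 were lower past the adjusted p (-0.66, -0.55 and -0.52) and the other 6 did not pass. Mcm3 remained past it in 11 of 16 omissions of an embryo, as did Cdc45 in 10 and Pola1 in 7. Mcm6 stood at 108, 165 and 268 CPM in Ctrl and 33.3, 107 and 165 CPM in KO late ICMs. Lig1 was lower at -0.51, and Pcna, which had fallen in early ICMs, had 0.18 ± 0.14 and did not pass. The regulators E2f1, Ccne1 and Ccne2 had -0.46, -0.22 and -0.77 and did not pass either.

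Of the nucleotide-supply genes 3 of 4 were higher. Rrm2, at mm10 chr12:24708241-24714146 on the plus strand, stood at 167, 261 and 496 CPM in Ctrl and 520, 792 and 1125 CPM in Oct4 KO late ICMs. Every KO embryo was above every Ctrl embryo, and the log2 fold change was 1.46 ± 0.21 (adjusted p = 1.03e-08). Rrm1, the large reductase subunit, went from 64.7, 102 and 134 CPM to 122, 146 and 232 CPM (0.66 ± 0.15, adjusted p = 0.000153). Tyms, which makes thymidylate, went from 59.3, 104 and 205 CPM to 126, 173 and 269 CPM (0.62 ± 0.16, adjusted p = 0.00136). Both ranges overlapped. The thymidine kinase gene Tk1 had 0.00 ± 0.14.

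Complete separation of the late groups was found for Gins2 and Rfc3 as lower, beside 2.97% of all genes, and for Rrm2 as higher, beside 2.67%. Of the trophectoderm markers 9 of 10 were called higher here, and their sum covered 1581 to 3369 CPM in KO and 262 to 1017 CPM in Ctrl late ICMs, with Gata3 at a mean of 443 against 62.4 CPM and Krt8 at 946 against 242 CPM. All 8 epiblast markers were called lower. Of 8 primitive endoderm markers 6 were tested, of which 4 were called lower and 2 higher, and their sum averaged 1208 CPM in KO and 569 CPM in Ctrl late ICMs. Whether this shift in cell markers has a part in the members' values was not tested.

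Taking both ICM stages of the Oct4 line, 9 members were lower past the adjusted p at each of them, Mcm3, Mcm5, Mcm6, Mcm10, Gins2, Prim1, Pold1, Lig1 and Hells, beside 6.74% of all genes. Rrm2 was the 1 member higher at both, beside 6.14%, although its early ICM value remained past the adjusted p in only 8 of 16 omissions (highest adjusted p = 0.0815), and 0 members passed in opposite directions, beside 0.242%. In the test of the difference between stages, late minus early ICM, 0 members were called by edgeR or DESeq2 and 9 were under an unadjusted p of 0.05, beside 2506 genes in all. The adjusted p alone was passed by Rfc3 (-0.87 ± 0.22, beside 1.54% of all genes lower) and, in the other direction, by Rrm1 (0.88 ± 0.20), Tyms (0.74 ± 0.22) and Pcna (0.71 ± 0.20), beside 2.92%. Against the morula, the early ICM effect of Oct4 loss differed for 10 members, all lower, beside 2.66% of all genes lower and with 0 members beside 2.18% higher. Past the fold minimum in that test were Gins2 (-1.46 ± 0.33), Pold1 (-1.27 ± 0.25), Mcm6 (-1.26 ± 0.23), Hells (-1.17 ± 0.26) and Rpa2 (-1.09 ± 0.19), beside 1.72% of all genes.

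**Figure D3:**
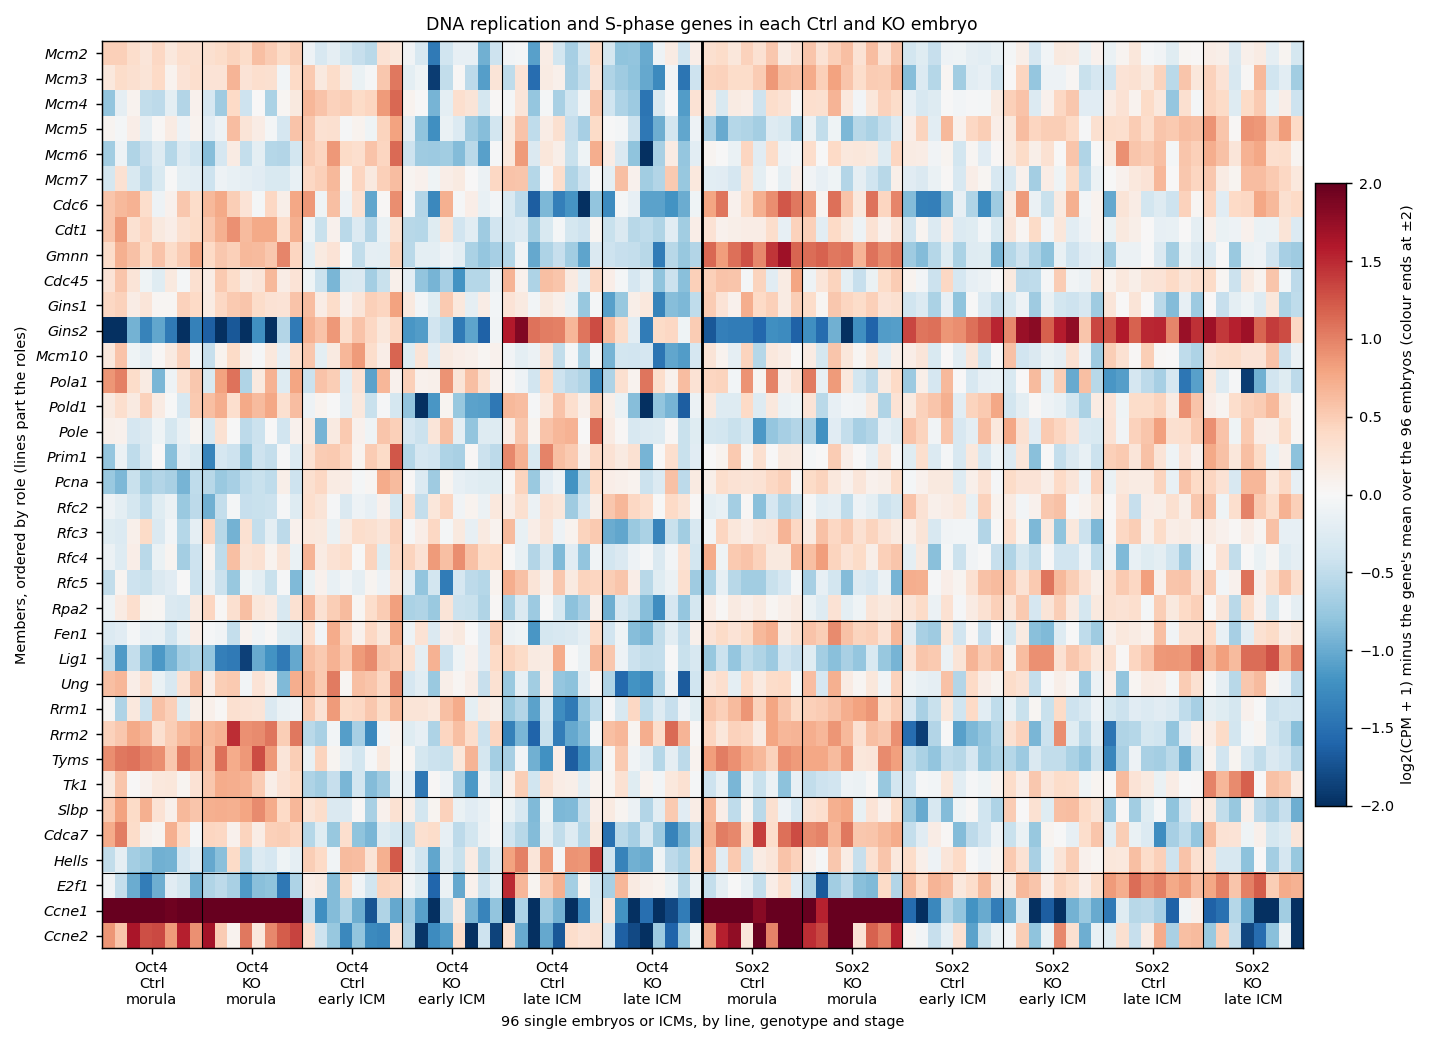
Heat map of the 36 members (rows, by role) in the 96 Ctrl and KO embryos (columns, by line, stage and genotype), as log2(CPM + 1) minus the mean of each gene over the 96 embryos. Morula columns are red for Ccne1 and Rrm2 and blue for Gins2 in both lines, and the Oct4 KO early ICM columns are bluer than their Ctrl for most licensing rows.

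In Sox2 KO early ICMs 4 members passed the adjusted p, Cdc6, Slbp and Rrm2 as higher and Pold1 as lower, and in late ICMs 3 did. Pold1 was lower in early ICMs of both lines, beside 1.84% of all genes, and Rrm2 was higher in both, beside 0.975%. In Sox2 KO early ICMs the members' median was 0.05 against -0.01 over all genes, with 24 of 36 above 0. Cdc6, the loader of the MCM helicase at mm10 chr11:98907801-98923940 (plus strand), was the single member called, as higher, beside 1.57% of all genes, and 0 were called lower beside 1.69%. It stood at 14, 20.1 and 33.4 CPM in Ctrl and 27.5, 41.2 and 69.1 CPM in KO embryos (1.09 ± 0.23, adjusted p = 0.000478), which is between 12 and 62 UMIs per embryo. Ranges overlapped, all 8 KO embryos were above the Ctrl median, and without KO embryo 10 the value was 0.97, under the fold minimum. The adjusted p alone was passed upward by 3 members, beside 3.22% of all genes: Cdc6, Slbp with 126, 192 and 231 CPM against 74.4, 106 and 152 CPM (0.78 ± 0.16, adjusted p = 0.000621), and Rrm2 with 271, 436 and 974 CPM against 138, 284 and 506 CPM (0.83 ± 0.20, adjusted p = 0.0037). Pold1 was lower, at 33.5, 46.4 and 59.0 CPM against 45.2, 74.1 and 90.3 CPM (-0.67 ± 0.17, adjusted p = 0.0066), beside 3.82% of all genes.

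No member separated the 2 genotypes of Sox2 early ICMs completely, beside 0.491% of all genes lower and 0.761% higher. In these KO ICMs the trophectoderm markers summed to between 609 and 2241 CPM against 158 to 621 CPM in Ctrl, with 5 of 10 called higher and 1 lower, and 5 of 8 epiblast markers were called lower. Leaving out KO embryo 11, which had the highest sum, left the count of called members at 1. The part of these markers was not tested.

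In Sox2 KO late ICMs 0 members were called by edgeR and 0 by DESeq2, beside 3.61% of all genes lower and 3.34% higher, and 9 were under an unadjusted p of 0.05, as were 3712 of the 14053 genes. The median was -0.01 against 0.00 over all genes. Past the adjusted p alone, Hells and Ccne1 were lower, beside 6.81% of all genes, and Tk1 higher, beside 6.96%. Tk1 stood at 268, 412 and 611 CPM in KO and 243, 282 and 416 CPM in Ctrl embryos (0.53 ± 0.14, adjusted p = 0.00418). Hells stood at 39.8, 56.5 and 88.0 CPM against 53.5, 90.6 and 108 CPM (-0.66 ± 0.19, adjusted p = 0.00932). Its log2 fold change was -0.37 with an adjusted p of 0.536 among the embryos with shared numbers alone. Ccne1, which encodes cyclin E1, stood at 5.12, 15.4 and 31.3 CPM against 14.7, 31.8 and 50.1 CPM (-0.88 ± 0.32, adjusted p = 0.0488). In all 3 genes the ranges overlapped, as for every other member, beside 1.17% of all genes separated as lower and 0.954% as higher. Ccne1 remained past the adjusted p in only 5 of 16 omissions of an embryo (highest adjusted p = 0.118), and among the embryos with shared numbers alone it had -0.46 with an adjusted p of 0.697. Without KO embryo 1-3, 1-5 or 2-6, 1 member was called. It was Ccne1 without 1-5 (-1.06) and without 2-6 (-1.02), and Ccne2 without 1-3. With all embryos Ccne2 had -1.04, the lowest value of the 36, and did not pass. Among the Ctrl late ICMs of this line, embryos 1-10 and 2-6 had trophectoderm sums of 2902 and 1918 CPM against a group median of 546 CPM, and without either of them 0 members were called. Between KO and Ctrl, 3 of the 10 trophectoderm markers were called higher and 5 of 8 epiblast markers lower, and the part of these markers in the members' values was not tested.

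The effects of the 2 losses were compared directly as a difference of log2 fold changes, Oct4 minus Sox2 line. In early ICMs 12 members were lower in that test past the adjusted p, beside 4.83% of all genes, and 0 higher, beside 3.29%. Gins2 (-1.62 ± 0.28, adjusted p = 1.28e-05), Cdc6 (-1.47 ± 0.31, adjusted p = 0.000697) and Mcm6 (-1.37 ± 0.23, adjusted p = 1.01e-05) also passed the fold minimum, beside 3.42%. In Sox2 early ICMs Gins2 had been at 72.9, 85.4 and 115 CPM in Ctrl and 58.1, 109 and 139 CPM in KO embryos, and Mcm6 at 114, 151 and 166 CPM and 97.6, 165 and 219 CPM. Both of these pairs overlapped. The other 9 were Mcm3, Mcm4, Mcm5, Prim1, Pcna, Rpa2, Lig1, Slbp and Hells, between -0.98 and -0.63.

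In late ICMs the same test gave 7 lower members, beside 4.49% of all genes, and 1 higher, beside 4.18%. Gins2 (-1.03 ± 0.27, adjusted p = 0.00598) passed the fold minimum as lower, beside 3.49% of all genes, and Rrm2 (1.11 ± 0.29, adjusted p = 0.00617) as higher, beside 2.81%. Pold1, Cdca7, Rfc3, Lig1, Mcm5 and Mcm10 lay between -0.96 and -0.69. Hells was not among them. For the Sox2 line, late minus early ICM, 0 members passed by edgeR at either threshold, beside 0.00712% of all genes lower and 0.0356% higher, 7 were under an unadjusted p of 0.05 beside 1494 genes in all, and DESeq2 called 0 at the fold minimum.

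The promoters of the members were examined for E2F letters, because many of these genes are textbook E2F targets and several changed together in Oct4 KO ICMs. RefSeq windows of the GRCm38.p6 build, from 250 bases before to 50 after each start, matched 29 of the 36 members by symbol, and Mcm4, Gmnn, Gins1, Gins2, Pole, Rfc2 and Ccne2 had none. Each was searched on both strands for TTTCCCGC, TTTCGCGC, TTTGCCGC and TTTGGCGC, allowing overlapping matches. A match was present in 12 of 29 members (41.4%) and in 704 of 27025 genes with a window (2.6%). Of the 12 members with a window that were lower past the adjusted p in Oct4 KO early ICMs 6 had a match, as did 6 of the other 17. The matched members were Mcm3, Mcm5, Mcm6, Mcm7, Cdc6, Cdt1, Pola1, Pold1, Rfc3, Lig1, Cdca7 and Hells. The letters CCAAT, searched the same way, were in 51.7% of members and 41.1% of all genes. A match is a description of the letters, and shows no binding.

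Stretches of 30 bases are shown for Mcm6 (chr1:128359786-128359815, minus strand), Mcm5 (chr8:75109347-75109376, plus strand), Hells (chr19:38930917-38930946, plus strand), Rfc3 (chr5:151651209-151651238, minus strand) and Cdc6 (chr11:98908002-98908031, plus strand), 5 matched members that differed past the adjusted p in a KO comparison. They are written 5′ to 3′ on the strand of the gene, with the matched letters in capitals. In Mcm6 and Mcm5 a match on each strand overlaps the other, so the capitals run on. RefSeq starts differ from the gene starts given above, so the Cdc6, Hells and Rfc3 stretches, which lie before their RefSeq start, fall inside the gene span as annotated there.
Mcm6: TTTGGCGCGAAAagtgcgtgcggtgggcgg
Mcm5: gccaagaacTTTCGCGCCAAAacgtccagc
Hells: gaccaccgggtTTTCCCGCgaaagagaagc
Rfc3: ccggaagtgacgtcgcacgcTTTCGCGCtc
Cdc6: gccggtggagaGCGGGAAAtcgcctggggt

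From morula to early ICM, cyclin E genes fell and Gins2 and Lig1 rose in the Ctrl embryos of both lines. This step also takes in culture with the inhibitor and isolation, and the Ctrl embryos lacked the maternal gene. In the Oct4 line 3 members were called lower (Ccne1, Ccne2 and Rrm2) beside 14.9% of all genes and 4 higher (Gins2, Lig1, Hells and Mcm6) beside 14.1%. In the Sox2 line 7 were called lower (Ccne1, Ccne2, Gmnn, Cdc6, Tyms, Rrm2 and Cdca7) beside 14.7% and 2 higher (Gins2 and Lig1) beside 17.2%. The medians of the 36 members were 0.29 in the Oct4 and -0.31 in the Sox2 line, against 0.00 and 0.03 over all genes. Other lists were counted in this step too. Of 10 trophectoderm markers 2 were called lower and 1 higher in the Oct4 line, beside 14.9% and 14.1% of all genes. In the Sox2 line 7 were called lower, beside 14.7%. Of 25 G2/M genes 8 were lower and 8 higher past the adjusted p in the Oct4 line. These stand beside 24.3% and 23.8% of all genes. In the Sox2 line 15 were lower and 1 higher, beside 25.2% and 26.6%. Epiblast markers were called higher in 7 and 5 of 8, and of 6 primitive endoderm markers tested 3 were called higher and 1 lower in each line. The part of these lists in the members' values was not tested. With the fold minimum, the members' shares were not above those of all genes, except for lower calls in the Sox2 line. Groups did not overlap for 5 lower and 7 higher members in the Oct4 line, beside 8.16% and 8.13% of all genes, and for 9 lower and 4 higher members in the Sox2 line, beside 9.14% and 9.23%. Past the adjusted p alone, 11 members (30.6%) were lower and 13 (36.1%) higher in the Oct4 line, beside 24.3% and 23.8% of all genes, and 17 (47.2%) lower and 8 (22.2%) higher in the Sox2 line, beside 25.2% and 26.6%. These shares were above those of all genes in each case but the higher members of the Sox2 line.

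Ccne1 changed most. It stood at 184, 259 and 422 CPM in Oct4 Ctrl morulae and 13.4, 24.4 and 33.7 CPM in early ICMs, and at 169, 274 and 329 CPM and 6.56, 19.3 and 30.9 CPM in the Sox2 line. No early ICM came near a morula, and the log2 fold changes were -3.48 ± 0.28 and -3.75 ± 0.28 (adjusted p = 1.39e-19 and 4.09e-21). Ccne2, the second cyclin E gene, was low throughout, with 10.5, 16.0 and 23.2 CPM in Oct4 morulae and 2.18, 3.56 and 8.70 CPM in early ICMs, or 2 to 8 UMIs per early ICM (-1.86 ± 0.38). The gene overlaps Ints8 on the other strand. Rrm2 fell from 636, 772 and 862 CPM to 207, 338 and 534 CPM in the Oct4 line (-1.07 ± 0.20, and -0.98 when scaled by totals) and from 574, 695 and 880 CPM to 138, 284 and 506 CPM in the Sox2 line (-1.33 ± 0.20).

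Gins2 rose from 5.25, 14.3 and 19.9 CPM in Oct4 morulae, and from 11.4, 14.3 and 16.2 CPM in Sox2 morulae, to the early ICM levels given above. The log2 fold changes were 2.15 ± 0.22 and 2.65 ± 0.21 (adjusted p = 4.28e-14 and 8.2e-20), with no overlap in either line. Lig1 went from 23.8, 31.2 and 38.6 CPM to 77.2, 81.1 and 105 CPM in the Oct4 line (1.44 ± 0.15) and from 31.2, 36.6 and 41.1 CPM to 49.9, 77.6 and 87.1 CPM in the Sox2 line (1.01 ± 0.15). These also did not overlap. In the Oct4 line Mcm6 was at the fold minimum (1.00 ± 0.16, and 0.99 with DESeq2), and its Sox2 line value was -0.09 ± 0.16.

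Under the adjusted p alone, 10 members were lower in both lines (Mcm2, Cdt1, Gmnn, Cdc45, Rrm2, Tyms, Slbp, Cdca7, Ccne1 and Ccne2) beside 13.4% of all genes, and 3 were higher in both (E2f1, Gins2 and Lig1) beside 13.5%. In 3 members, Rfc4, Fen1 and Rrm1, the lines passed in opposite directions, beside 4.35%. Rrm1 had 0.43 ± 0.14 in the Oct4 line and -0.80 ± 0.14 in the Sox2 line. The difference between the lines in these steps was not tested.

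**Figure D4:**
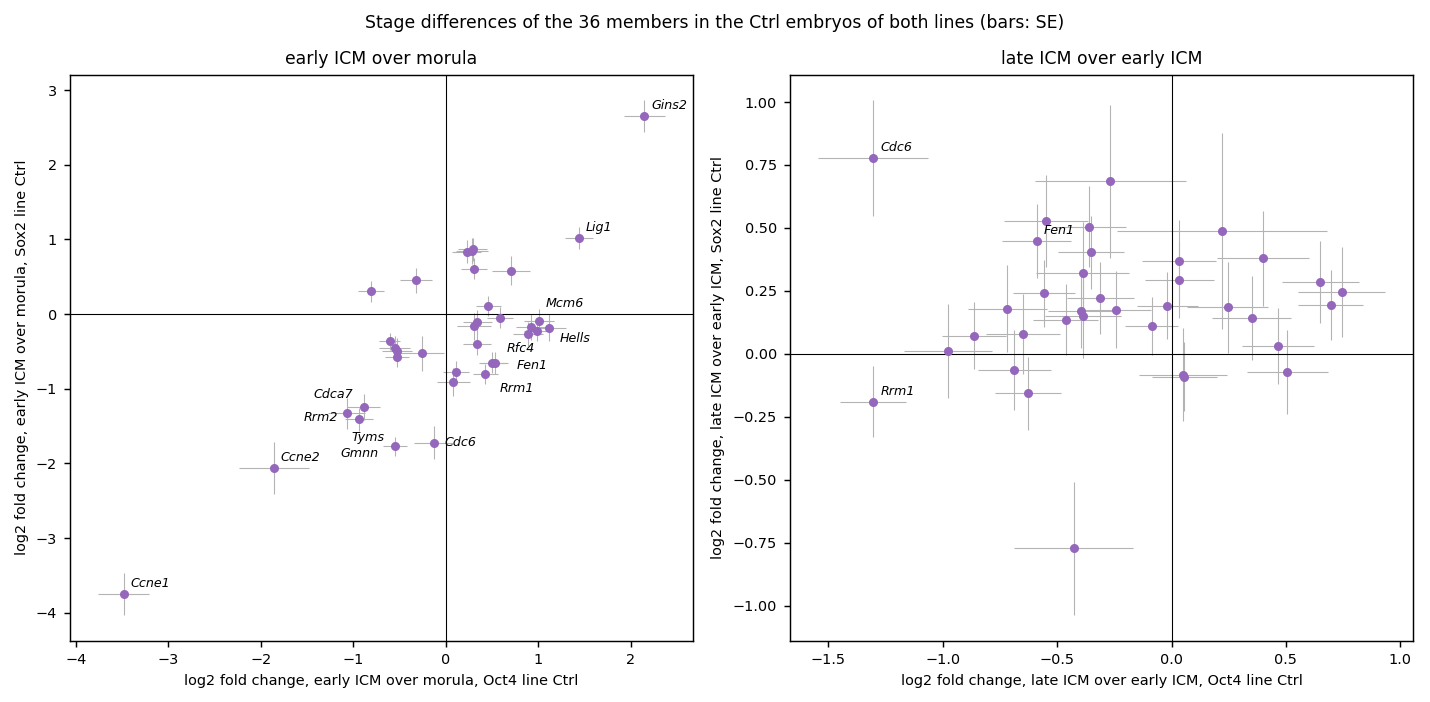
Log2 fold changes of the 36 members between consecutive stages in Ctrl embryos, Oct4 line on the horizontal and Sox2 line on the vertical axis, with SE bars. From morula to early ICM, Ccne1 lies at -3.48 and -3.75 and Gins2 at 2.15 and 2.65. From early to late ICM, Cdc6 lies at -1.31 and 0.78.

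From early to late ICM the lines gave different values. In Oct4 Ctrl embryos 2 members were called lower beside 6.04% of all genes and 0 higher beside 9.52%, and the median was -0.33 against 0.03. Cdc6 went from 17.9, 42.5 and 72.9 CPM to 8.5, 18 and 30.3 CPM (-1.31 ± 0.24, adjusted p = 6.74e-06) with overlap. Rrm1 went from 213, 241 and 314 CPM to 64.7, 102 and 134 CPM (-1.30 ± 0.14, adjusted p = 2.68e-12) without overlap, the 1 member to do so, beside 3.5% of all genes lower and 2.87% higher. Past the adjusted p alone 13 members were lower beside 15.2% of all genes and 5 higher beside 17.2%, among them Gins2 at 0.74 and Tk1 at 0.69. With this step 11 of the 25 G2/M genes were lower and 2 higher past the adjusted p, 4 of 8 epiblast markers were called higher, and of 6 primitive endoderm markers tested 4 were called higher and 2 lower. In the Sox2 line 3 primitive endoderm and 3 trophectoderm markers were called higher, beside 1.94% of all genes. The part of these lists was not tested.

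In Sox2 Ctrl embryos 0 members were called by edgeR or DESeq2, beside 0.961% of all genes lower and 1.94% higher, with 9 under an unadjusted p of 0.05 beside 2955 genes in all. The median was 0.18 against 0.01. Cdc6 (0.78 ± 0.23, from 14, 20.1 and 33.4 to 18.1, 35.1 and 52.4 CPM), Mcm6 (0.50 ± 0.16) and Fen1 (0.45 ± 0.15) were higher past the adjusted p, beside 3.36% of all genes, and 0 were lower, beside 3.85%. Cdc6 and Fen1 thus passed in opposite directions in the 2 lines, beside 0.363% of all genes, and that difference was not tested. Both stage steps of a line share its early ICM Ctrl embryos, which also serve the KO comparison.

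MWT and Ctrl embryos, which differ in the maternal gene and, for Oct4 ICMs, possibly in stage or treatment as labelled, gave 0 called members in each of the 4 comparisons by edgeR and by DESeq2. Of all genes, 0.0503% were called lower and 0.0144% higher in Oct4 morulae, 0.187% in each direction in Oct4 early ICMs, 0.524% and 0.273% in Oct4 late ICMs, and 1.41% and 1.17% in Sox2 early ICMs. Members with an unadjusted p below 0.05 numbered 0 in Oct4 morulae, 5 in Oct4 early ICMs, 3 in Oct4 late ICMs and 6 in Sox2 early ICMs, beside 1005, 1326, 1939 and 2852 of the 13923 genes fitted with MWT embryos. Log2 fold changes over the 4 comparisons lay between -0.53 and 0.57. In the Sox2 early ICMs 2 members passed the adjusted p alone: Rpa2 was lower in MWT embryos (-0.53 ± 0.14, adjusted p = 0.0113, means of 70.3 and 102 CPM) beside 3.02% of all genes, and Gmnn was higher (0.57 ± 0.13, adjusted p = 0.0032, means of 156 and 105 CPM) beside 3.3%. Primitive endoderm markers there summed to means of 1067 CPM in MWT and 484 CPM in Ctrl embryos. The sums were 678 and 454 CPM for trophectoderm and 1671 and 1948 CPM for epiblast markers. The part of these markers was not tested. Mcm6, which fell on Oct4 loss, had 148, 192 and 210 CPM in Oct4 MWT early ICMs, and Gins2 had 44.7, 51.8 and 59.1 CPM, both overlapping the Ctrl range.

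Summed over the 36 members, the level was 5206 ± 358 CPM in Oct4 Ctrl and 5740 ± 514 CPM in Oct4 KO morulae (mean ± SD, n = 8 each). In early ICMs it was 4827 ± 708 CPM in Ctrl and 3919 ± 492 CPM in KO embryos, and in late ICMs 3917 ± 798 and 3952 ± 541 CPM. The late means differed by less than either SD. By its own means Rrm2 stood at 759 CPM in KO and 279 CPM in Ctrl late ICMs, and Mcm6 at 109 and 173 CPM. In the Sox2 line the Ctrl and KO sums were 5522 ± 350 and 5652 ± 491 CPM in morulae, 3965 ± 366 and 4586 ± 525 CPM in early ICMs, and 4558 ± 398 and 4864 ± 668 CPM in late ICMs. Every pair of these sums overlapped between the genotypes.

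**Figure D5:**
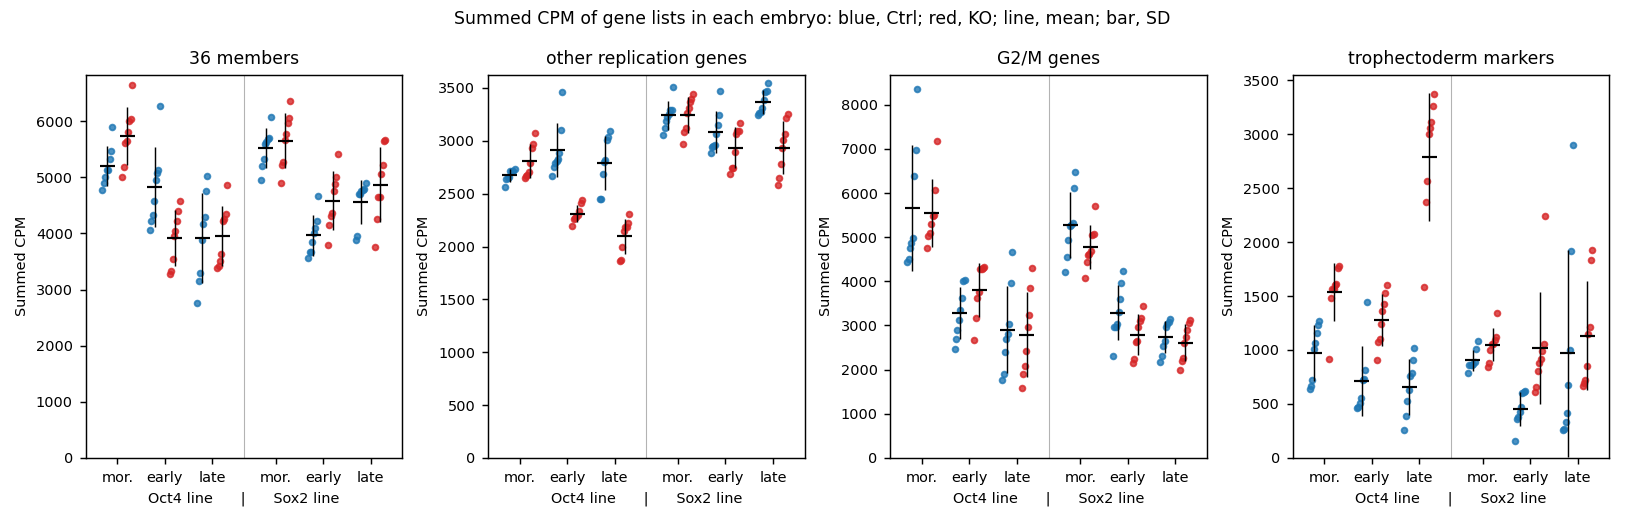
Summed CPM of the 36 members, 46 other replication genes, 25 G2/M genes and 10 trophectoderm markers in each Ctrl (blue) and KO (red) embryo, with mean and SD, on linear axes from 0. The other replication genes do not overlap between Oct4 KO and Ctrl ICMs, and the trophectoderm markers of Oct4 KO late ICMs lie between 1581 and 3369 CPM.

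A list of 46 other replication genes, none of them members, was chosen, as were the members, with earlier results of these data known. In Oct4 KO early ICMs 17 were lower and 3 higher past the adjusted p, beside 10.9% and 10.1% of all genes. The median was -0.33, and the summed level covered 2194 to 2442 CPM in KO and 2663 to 3458 CPM in Ctrl embryos. The 3 called genes with the smallest p were Uhrf1, a partner of maintenance DNA methylation, at a mean of 8.29 against 71.9 CPM (-3.10 ± 0.33), Dut, which removes dUTP, at 137 against 395 CPM (-1.52 ± 0.17), and the helicase gene Recql4 at 4.52 against 19.4 CPM (-2.08 ± 0.31). In Oct4 KO late ICMs 18 were lower and 4 higher, beside 15.7% and 16%, the median was -0.32 and the sums again did not overlap. In Sox2 KO early ICMs 3 were lower and 2 higher, beside 3.82% and 3.22%, and in late ICMs 7 and 4, beside 6.81% and 6.96%.

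Of 25 genes of G2 and mitosis 0 were lower and 1 higher past the adjusted p in Oct4 KO early ICMs. Their median was 0.11, and of all genes 10.9% and 10.1% passed. In Oct4 KO late ICMs 4 were lower and 3 higher, beside 15.7% and 16% of all genes. There the mitotic kinase gene Cdk1 was called lower (-1.06 ± 0.23), beside 8.85%. In the Sox2 line 0 of the 25 passed in early ICMs, beside 3.82% of all genes lower and 3.22% higher. Only Cenpf passed in late ICMs (-1.29 ± 0.24), beside 6.81% lower and 6.96% higher. Of 12 E2F and pocket protein genes, E2f7 was called higher in Oct4 KO early ICMs (1.17 ± 0.41), beside 4.77% of all genes. E2f8 was called higher in Oct4 KO late and Sox2 KO early ICMs (1.82 ± 0.46 and 1.51 ± 0.48), beside 9.25% and 1.57%. E2f5 was called lower in Oct4 KO late ICMs (-1.72 ± 0.35), beside 8.85%.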

How the data were processed

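Per the labels and the study's methods, 3′-end-enriched single-embryo libraries were sequenced, and the authors used UMI-tools for UMIs, Cutadapt against poly-A ends, TopHat2 with mm10 and GENCODE vM23 for alignment, featureCounts for genes (strand use not given in the sources used here) and TRUmiCount for molecules. The deposited table holds counts, whole UMIs per gene, not normalized. A deposited table of rlog values and the ERCC spike-ins were not used here.

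A gene was tested if a UMI was seen in 0.5 or more of the embryos of any stage. Groups were the model terms in edgeR 4.0.16, R 4.3.3 (TMM, glmQLFit and glmQLFTest), without covariates. Over the 96 Ctrl and KO embryos (12 groups) 14053 genes were fitted, and with MWT embryos (16 groups) 13923. Adjusted p-values are Benjamini-Hochberg over all genes tested. SE is the fold change over the square root of F. Interactions were contrasts in the same fit. Alternatives were DESeq2 1.42.0, scaling by total UMIs, no filter, MWT embryos in the fit, the 16 embryos of a comparison alone, no fold minimum, blocks and leave-one-out. The test was checked on simulated data. Overlaps came from GENCODE vM21, promoters from RefSeq. A gene on the other strand overlapped 14 members, Lig1, Fen1, Rfc4, Tk1, Slbp and Cdc45 among them. The limit on strand given for Gins2 holds for these too.

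Members and lists were chosen with earlier results of these data known. Named are members called in a KO comparison, otherwise the 3 smallest p, members called between stages in both lines, and at most 3 genes per other list. Other members, and those called between stages in 1 line, were named after their values were seen. Nothing says that embryos of a group came from separate litters, so p-values measure the spread between these embryos. No pair of libraries had near-equal counts (lowest chi-square per gene 2.63).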

Additional observations from a re-analysis of the deposited data

Results flagged for a closer look

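A difference between groups in the effect of the KO, past the adjusted p of edgeR's quasi-likelihood interaction test and a log2 difference of 1, was found for 10 values. Between the lines in early ICMs (Oct4 minus Sox2 line) they were Mcm6 at -1.37, Cdc6 at -1.47 and Gins2 at -1.62, and in late ICMs Gins2 at -1.03 and Rrm2 at 1.11. For Cdc6 the single fold changes were -0.38 in the Oct4 line, not past the adjusted p, and 1.09 in the Sox2 line. Within the Oct4 line, early ICM minus morula, they were Mcm6 at -1.26, Gins2 at -1.46, Pold1 at -1.27, Rpa2 at -1.09 and Hells at -1.17. Pold1 stood at 66.0, 81.3 and 90.2 CPM (lowest, median, highest) in Oct4 KO morulae, against 41.8, 59.5 and 75.4 CPM in Ctrl morulae. In 30 sets of embryo values examined, 0 had an embryo far from the others, where chance gives about 1 in 20.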

How the results depend on the processing

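Over 969 values under alternatives, 922 kept their direction and side of the threshold, or for counts stayed within 1.5 times, and 0 reversed. Without a fold minimum the members called numbered 16 (early) and 17 (late) for Oct4 KO ICMs, 4 (early) and 3 (late) for Sox2 KO ICMs, 24 and 18 for the stage steps of Oct4 Ctrl and 25 and 3 for those of Sox2 Ctrl, 12 and 8 for the differences between lines in early and late ICMs, 10 and 4 for those within the Oct4 line and 2 for Sox2 MWT early ICMs.

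Whether replicate numbers pair embryos was not tested: same-numbered embryos correlated between -0.092 and 0.268, and no differently numbered pairs were set beside them. Among embryos with shared numbers only, the replicate block gave 2 members past the adjusted p in Oct4 morulae, 5 called and 9 past the adjusted p in Oct4 early ICMs (4 and 7 unblocked) and 2 called in Sox2 early ICMs. Unblocked, 1 passed the adjusted p in Sox2 early and 1 in Sox2 late ICMs. For Oct4 late ICMs and Sox2 morulae alone, no paired analysis was possible because they shared only 1 and 0 numbers. With the label set of late ICM numbers as a block, 5 members passed the adjusted p in Sox2 late ICMs.

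Leaving out 1 embryo at a time, called members ranged from 2 to 4 in Oct4 early ICMs (4 without KO embryo 18), 3 to 5 in Oct4 late ICMs, 0 to 1 in Sox2 early ICMs (0 without KO embryo 10) and 0 to 1 in Sox2 late ICMs (1 without KO embryo 1-3, 1-5 or 2-6), and 0 to 0 in morulae. Past the adjusted p alone the ranges were 13 to 16, 16 to 20, 4 to 4 and 2 to 4. In Sox2 late ICMs, Hells ranged from -0.37 to -0.76 over the other alternatives, with adjusted p from 0.003 to 0.536, and Ccne1 from -0.44 to -0.98, with adjusted p from 0.0232 to 0.697. The cause of these shifts was not tested. Scaling by totals moved the median of all genes in Oct4 late ICMs to -0.101. Few UMIs per embryo limit the precision for Gins2, Cdc6, Ccne1 and Ccne2, among others.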
